A study of Homo sapiens and Mus musculus with 6 samples.

Results

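Keratin and keratin-associated protein genes were examined in the promoter interactions that CHiCAGO called from promoter Capture Hi-C (CHi-C), an assay in which a Hi-C library is enriched for restriction fragments that carry promoters. A captured promoter fragment is a bait, the fragment it is joined to is its other end, and a call is a bait and other end with a CHiCAGO score of at least 5, the threshold of the deposited lists. Baits were taken where a gene symbol began with KRT followed by a digit or with KRTAP, in either case of letters. This gave 95 baits with a call of 15389 in GM12878, with 384 of 92929 calls, and 72 of 16265 baits in mESCs, with 813 of 101841 calls. A further 17 keratin baits in GM12878 and 3 in mESCs stood in the lists only as the other end of another bait, which makes 112 and 75 listed keratin baits.

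The human samples were 3 biological replicates of GM12878, an established lymphoblastoid line of B lymphocytes, and the mouse samples were 2 biological replicates of embryonic stem cells (mESCs) of strain 129S4/SvJae. No sample carried a treatment. The authors called interactions on all replicates of a cell type together, so each cell type is a single set of calls without a spread between replicates, and the intervals below are Wilson 95% intervals (for medians, order-statistic 95% intervals) that cover counting error only. Calls that share a bait are not independent, which these intervals ignore. The lists hold no expression values, so neither the identity of the cells nor the activity of a keratin gene could be checked, and cell type, species and the set of captured baits cannot be told apart. Of the protein-coding keratin and KRTAP genes annotated in each genome, 114 of 149 human and 74 of 96 mouse genes had a listed bait, and 99 and 71 had a call. An annotated gene that is not listed may have been captured and have no call.

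Keratins are the intermediate filament proteins of epithelial cells and of hair and nail. A type I and a type II keratin pair to form a filament, as KRT14 and KRT5 do in basal keratinocytes, KRT10 and KRT1 in the layers above, KRT16 or KRT17 and KRT6A in wounded or appendage epithelium, and KRT18 and KRT8 in simple epithelia. The type I genes lie in one cluster and the type II genes in another, on different chromosomes, with KRT18 as the type I gene that lies beside KRT8 at the edge of the type II cluster. Keratin-associated proteins (KRTAPs) cross-link the keratins of the hair shaft, and many of their genes lie in the middle of the type I cluster. Lymphoblasts and embryonic stem cells are not keratinising cells, and most keratin genes are not expressed in such cells.

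Fragments that the most keratin baits of their locus were joined to are shown here by the 60 bases at one of their ends, where ligation joins a fragment to its partner. Capitals mark the HindIII site at which the genome was cut. The plus-strand start was taken for each fragment: chr17:39524669-39524728 (hg19) in the human type I locus, chr12:53206185-53206244 and chr12:53216943-53217002 (hg19) in the human type II locus, chr11:99350384-99350443 (mm9) in the mouse type I locus and chr15:101775333-101775392 (mm9) in the mouse type II locus.
KRT33B: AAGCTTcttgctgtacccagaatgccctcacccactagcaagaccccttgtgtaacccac
KRT4: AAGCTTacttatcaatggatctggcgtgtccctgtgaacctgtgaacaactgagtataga
KRT78/KRT79: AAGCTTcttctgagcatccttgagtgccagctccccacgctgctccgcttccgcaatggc
Krt23: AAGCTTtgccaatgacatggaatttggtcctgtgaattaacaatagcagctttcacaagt
Krt78: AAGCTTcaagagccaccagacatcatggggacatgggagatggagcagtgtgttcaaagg
Each of these fragments overlaps exons of the gene or genes it is named for. All 245 fragments of keratin calls in GM12878 and all 271 in mESCs had the start and end of a HindIII fragment of the reference, 100% in both.

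With all classes pooled, keratin calls were longer in range than the calls of all baits. Their median distance was 324 kb (291 to 369) in GM12878, against 174 kb for all calls, and 412 kb (390 to 428) in mESCs, against 139 kb. By class, GM12878 medians were 485 kb (461 to 513) for type I and 264 kb (212 to 323) for type II baits. KRTAP baits there had 217 kb (158 to 291), an interval that includes the 174 kb. The larger KRTAP locus of chromosome 21 had 89 kb and the second 128 kb, both below 174 kb. In mESCs type I, type II and KRTAP baits had 585, 346 and 367 kb. Calls over 200 kb were 67.4% (62.6 to 71.9) of the keratin calls in GM12878 and 76.4% (73.3 to 79.2) in mESCs, where all calls gave 43.8% and 36.1%. None of the 384 and 813 keratin calls joined 2 chromosomes, which allows a share of up to 0.781% in GM12878 and 0.369% in mESCs, and the share among all calls was 0.31% and 0.569%. A bait stood at the other end of 57% (52 to 61.9) of the keratin calls in GM12878, against 29.4% of all calls. In mESCs this share was 41.3% (38 to 44.7), against 36.3%. The read counts behind the keratin calls, which are weighted over replicates, had a median of 12 with a range of 3 to 127 in GM12878 and a median of 10 with a range of 4 to 331 in mESCs. All calls had median read counts of 16 and 13. Keratin scores had a median of 6.22 and 6.1, near the 6.62 of all calls in both cell types. Their highest values were 23.93 and 21.01, against 568.59 and 2252.5 among all calls. At a score of at least 10, where 41 keratin calls were left in GM12878 and 46 in mESCs, the median distance in GM12878 was 116 kb, below the 148 kb of all such calls, and that in mESCs was 391 kb, against 110 kb.

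At the deposited threshold the number of calls per keratin bait differed between the cell types. The mean over keratin baits with a call was 4.04 in GM12878 and 11.3 in mESCs, while that over all baits was 6.04 and 6.26. Among type I keratin baits the mean was 6.18 in GM12878 and 10.7 in mESCs. Type II baits had 4.1 and 12.8, and KRTAP baits 2.98 and 10.6. By the mean, keratin baits thus lay below all baits in GM12878 and above them in mESCs, with type I baits of GM12878 close to the mean of all baits. By the median they did not differ in GM12878, with 3 calls for keratin baits and 3 for all baits. In mESCs the medians were 9.5 and 3. At a score of at least 10, 41 calls from 21 keratin baits were left in GM12878 and 46 from 28 in mESCs. The higher mean of mESCs was not seen at that threshold.

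Listed keratin baits no more than 1 Mb apart were grouped into loci. The type I locus on human chromosome 17 ran from KRT222 to KRT14 over 925 kb with 41 listed baits and made 195 calls. Its mouse counterpart on chromosome 11 ran from Krt222 to Krt42 over 1023 kb with 46 baits and made 524 calls. The type II locus on human chromosome 12 ran from KRT7 to KRT78 over 618 kb with 23 baits and 82 calls, and the mouse locus on chromosome 15 from Krt7 to Krt18 over 617 kb with 21 baits and 265 calls. Apart from KRTAPs, 9 annotated human keratin genes had no listed bait, KRT12, KRT16, KRT17 and KRT32 of type I, KRT3, KRT5, KRT8 and KRT80 of type II, and KRT18. In mESCs 3 keratin genes, Krt10, Krt80 and Krt6b, had no bait of their symbol, so they are not among the members. The annotated start of Krt10 lies in the listed bait of Gm11940, which received 6 calls from keratin baits, and that of Krt80 in the bait of Mir1941, which received 2. The start of Krtap4-8 lies in the bait of Gm11595, which also received 2. These calls are counted with those to other promoters or outside the locus.

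In the human type I locus, 75 of the 195 calls (38.5%) ended on another keratin or KRTAP bait of the locus and joined 72 pairs, 111 ended on an unbaited fragment and 9 on the promoter of another gene. The mouse type I locus had 198 keratin calls (37.8%), which joined 169 pairs, 273 to unbaited fragments and 53 to other promoters. In the human type II locus 55 of 82 calls (67.1%) ended on another keratin bait, joining 54 pairs, 27 on unbaited fragments and 0 on another promoter. The mouse type II locus differed in this makeup, with 56 of 265 calls (21.1%) on keratin baits, joining 44 pairs, 192 on unbaited fragments and 16 on other promoters.

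**Figure D1:**
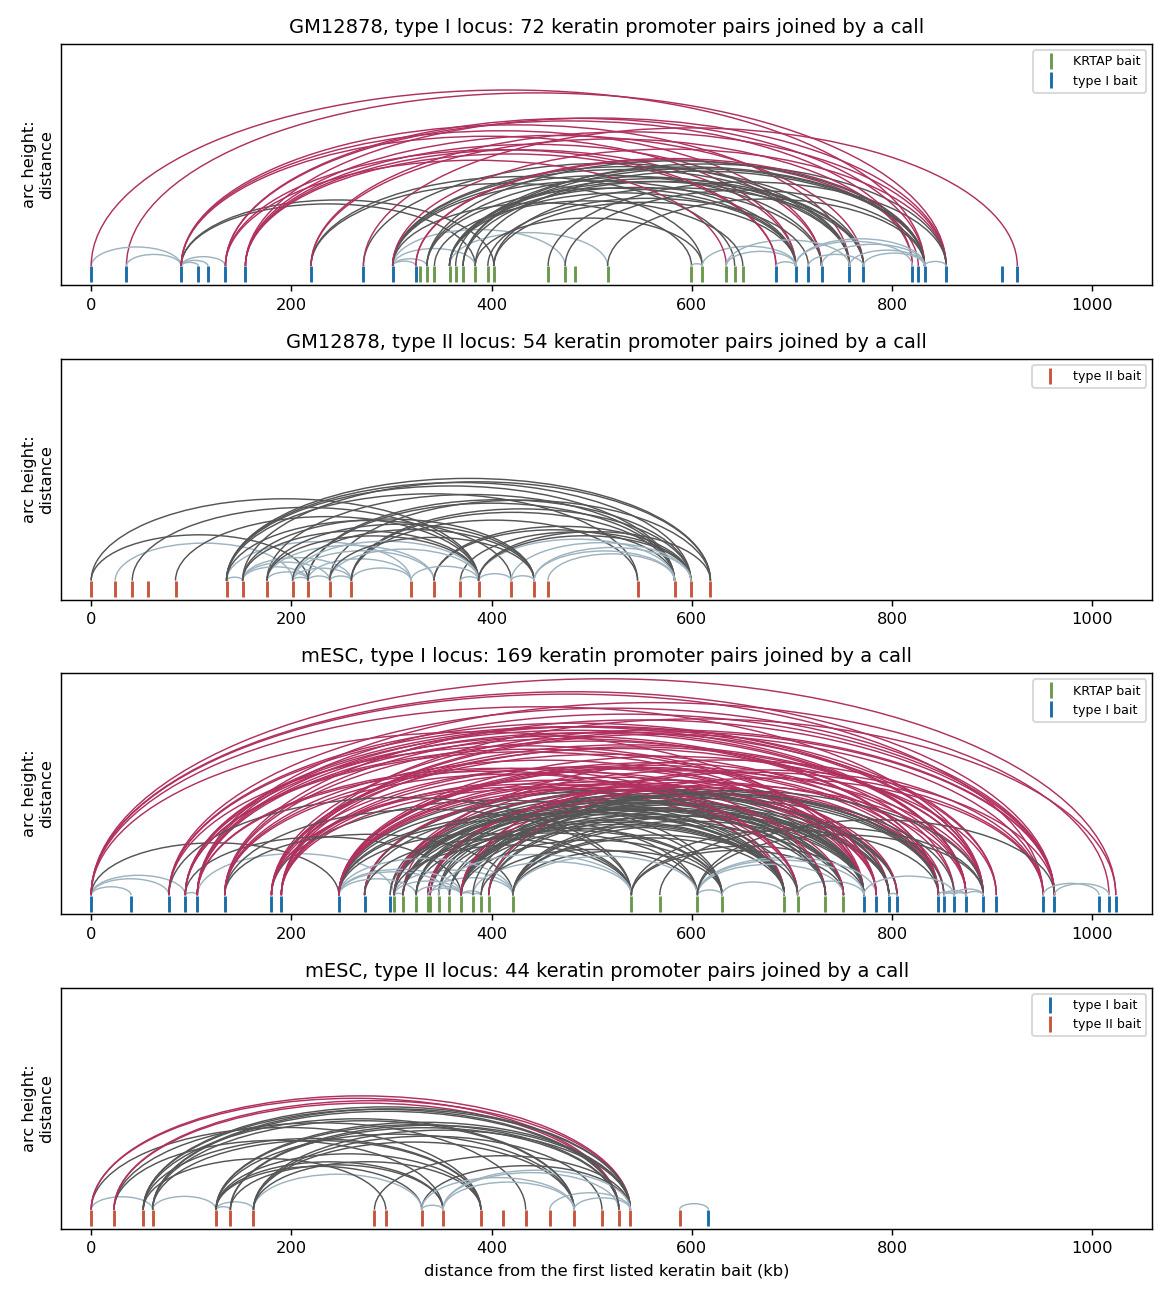
Keratin promoter pairs joined by a call in the 4 main loci. The horizontal axis gives the distance from the first listed keratin bait in kb, ticks are baits coloured by class, and each arc joins 2 baits, with its height in proportion to their distance (pale blue under 200 kb, grey 200 to 500 kb, dark red over 500 kb). Long arcs join the 2 ends of the type I locus across the KRTAP baits in both cell types, and the locus has 72 pairs in GM12878 and 169 in mESCs against 54 and 44 in the type II locus. Arcs among the KRTAP baits are few in GM12878 (4 pairs) and more in mESCs (41 pairs).

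The highest-scoring calls included both neighbours and genes from opposite ends of a cluster. KRT39, a hair keratin, was joined to KRT33B, a hair cortex keratin 402 kb away, with 17 reads and a score of 22.34, the highest of the human type I locus. KRTAP9-7 and KRTAP9-6, 10.8 kb apart, followed with 18 reads and 21.45. KRT13 and the bait that carries both KRT15 and KRT19, 21.6 kb apart, had 41 reads and 16.37. KRT39 also met KRT37 over 456 kb with 13 reads and 16.35. The score sets a read count against that expected for the fragments at their distance, and long calls with few reads stood beside short calls with more.

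In the human type II locus the highest scores belonged to KRT6B and KRT75, 15.3 kb apart, with 46 reads and 16.12, and to KRT6A and KRT75, 58.6 kb apart, with 23 reads and 16.09. KRT6A, KRT6B and KRT6C encode near-identical keratins of wounded and appendage epithelium, and KRT75 a companion-layer keratin of the hair follicle. KRT6B was also joined to the KRT78/KRT79 bait over 382 kb with 12 reads and 15.82, and KRT85 to KRT4, a keratin of mucosal epithelium, over 447 kb with 15 reads and 14.55.

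In mESCs, Krt34 was joined to an unbaited fragment 640 kb away with 18 reads and a score of 17.98, the highest of the mouse type I locus. Krt36 and Krt23 followed over 615 kb with 15 reads and 15.47. The nearest gene to the unbaited fragment was Krt10, 8.17 kb away, and 13 keratin baits were joined to it. The mouse type II locus had its highest score between Krt84, a hair keratin, and Krt78 over 414 kb, with 13 reads and 21.01. Krt73 and an unbaited fragment 412 kb away had 18 reads and 16.01, and Krt75 and Krt78 over 376 kb had 23 reads and 15.78.

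The share of keratin bait pairs joined by a call was set against all pairs of listed baits at the same distance. All baits gave 30.6% under 50 kb, 29.1% at 50 to 100 kb, 25.3% at 100 to 200 kb, 13.1% at 200 to 500 kb and 2.19% at 500 kb to 1 Mb in GM12878. In mESCs the shares were 34.8%, 30.5%, 24.2%, 11% and 1.97%. Keratin pairs mostly lay below these shares at short and above them at long distances.

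Under 200 kb, 22 of 303 pairs of the human type I locus were joined, 7.26% (4.84 to 10.7), where all baits gave 27.6%. In mESCs 37 of 352 were joined, 10.5% (7.72 to 14.2), where all baits gave 28.5%. The type II locus had 20.6% (14.5 to 28.5) in GM12878, an interval that includes the all-bait share, and 12.5% (7.45 to 20.2) in mESCs, which does not.

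From 200 kb to 1 Mb, 50 of 517 human type I pairs were joined, 9.67% (7.41 to 12.5), where all baits gave 6.65%. The all-bait shares of the same distance classes would give 50.4 such pairs, so at matched distances the human type I locus showed no excess over this range. At a score of at least 10 its share was 0.967%, below the 1.34% of all baits. In the human type II locus 28 of 127 pairs were joined, 22% (15.7 to 30), where 14.8 pairs would follow from the all-bait shares. In mESCs it was 131 of 680 in type I, 19.3% (16.5 to 22.4), where 46.6 pairs would follow, and 31 of 106 in type II, 29.2% (21.4 to 38.5), where 10.5 would, and all baits gave 5.69%. The range from 200 to 500 kb showed the loci apart, though only the type I locus includes pairs with KRTAP baits. The human type I locus had 30 of 359 pairs, 8.36% (5.92 to 11.7), below the all-bait 13.1%, and the human type II locus 28 of 110, 25.5% (18.2 to 34.3), above it. In mESCs both lay above the 11% of all baits, with 68 of 369 pairs, 18.4% (14.8 to 22.7), in type I and 27 of 93, 29% (20.8 to 38.9), in type II. From 500 kb to 1 Mb, 20 of 158 human type I pairs, 12.7% (8.35 to 18.7), and 63 of 311 mouse type I pairs, 20.3% (16.2 to 25.1), were joined, against 2.19% and 1.97% for all baits. Type II loci are shorter and had 17 human pairs in this class with 0 joined, which allows up to 17.6%, and 13 mouse pairs with 4 joined, 30.8% (12.7 to 57.6). At a score of at least 10 the type I shares of this class were 2 of 158, 1.27% (0.348 to 4.5), in GM12878 and 5 of 311, 1.61% (0.689 to 3.71), in mESCs, where all baits gave 0.352% and 0.264%.

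**Figure D2:**
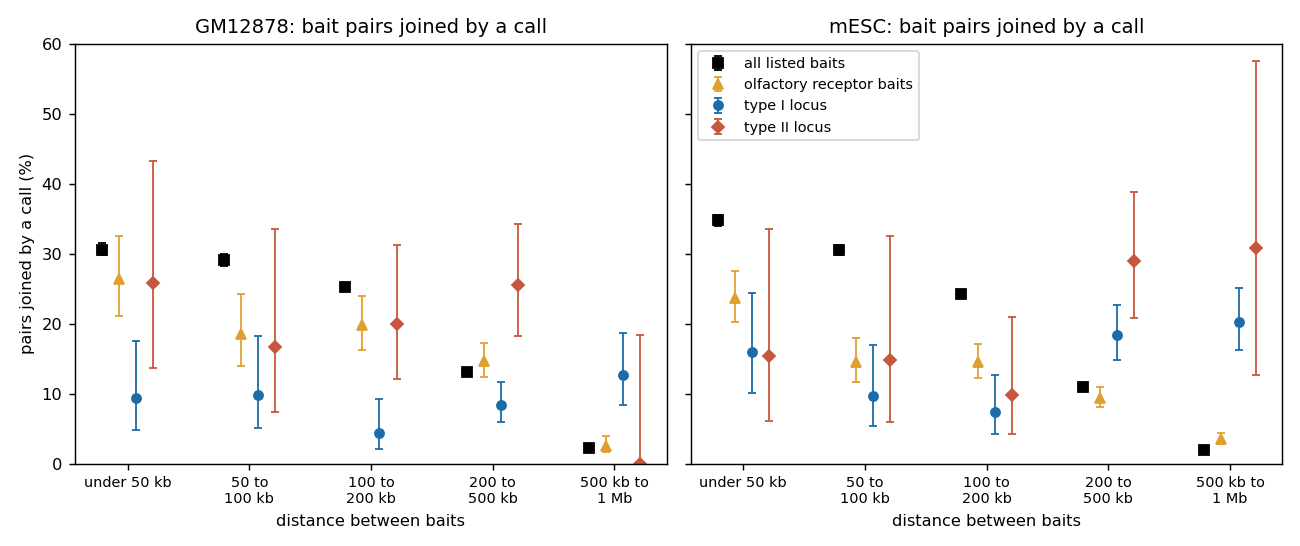
Share of bait pairs joined by a call, in %, against the distance between the baits, in GM12878 and mESCs. Points are all listed baits, olfactory receptor baits, and the type I and type II keratin loci, and bars are Wilson 95% intervals. All baits fall to 2.19% and 1.97% in the last class, in which the type I locus has its highest share, 12.7% and 20.3%.

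Olfactory receptor genes, another clustered family that is silent in most cells, were counted in the same way. At 500 kb to 1 Mb 2.55% (1.64 to 3.95) of their pairs were joined in GM12878, an interval that includes the all-bait 2.19%. In mESCs it was 3.48% (2.74 to 4.41), above the all-bait 1.97% and below the 20.3% of the type I keratin locus. Under 200 kb they gave 21.3% (18.7 to 24.2) in GM12878 and 17.1% (15.4 to 18.9) in mESCs. Olfactory receptor pairs thus also lay below the all-bait 27.6% and 28.5% at short distances. Their share was above that of the type I keratin locus in both cell types, and in GM12878 it was close to the 20.6% of the type II locus.

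Splitting the type I locus at its KRTAP genes showed where the long pairs lay. In GM12878 the 11 baits from KRT222 to KRT40 and the 12 baits from KRT33A to KRT14 formed 132 pairs with a median distance of 636 kb, of which 24 were joined, 18.2% (12.5 to 25.6), where the all-bait shares of the same distances would give 5.29 pairs. In mESCs the 11 baits from Krt222 to Krt40 and the 15 from Krt33a to Krt42 formed 165 pairs with a median distance of 744 kb. Of these, 46 were joined, 27.9% (21.6 to 35.2), where 3.56 would follow from the all-bait shares. Pairs among the KRTAP baits of the middle differed between the cell types, with 4 of 153 joined in GM12878, 2.61% (1.02 to 6.53), and 41 of 190 in mESCs, 21.6% (16.3 to 28). The all-bait shares would give 36.5 and 41.9. KRTAP baits met the first keratin baits in 9 of 198 pairs and the last in 21 of 216 in GM12878. There 29.9 and 31.5 would follow. In mESCs it was 27 of 220 and 40 of 300, where 29.7 and 30.6 would follow. The type II locus has no KRTAP baits, so the pair shares of the 2 loci cover unlike kinds of pairs.

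The type II locus was split at KRT75 and KRT4. In GM12878 the 12 middle baits, from KRT75 to KRT76, and the last 3, from KRT4 to KRT78, had 15 of 36 pairs joined, 41.7% (27.1 to 57.8), where 6.42 would follow from the all-bait shares. The 8 baits from KRT7 to KRT82 met the last 3 in 5 of 24 pairs, 20.8% (9.24 to 40.5), over a median of 530 kb. In mESCs the first 6 and last 5 baits met in 12 of 30 pairs, 40% (24.6 to 57.7), over a median of 487 kb, where 2.12 would follow. The last mouse block runs from Krt4 to Krt18 and takes in Krt8 and Krt18, which have no listed bait in GM12878, so the blocks are not alike. The middle and last mouse baits met in 8 of 50 pairs, 16% (8.34 to 28.5), where 9.83 would follow. The excess of the middle and last blocks of GM12878 was thus not seen in these mouse blocks.

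Some keratin promoters made many calls and others received them. In the human type I locus KRT33B made 19 calls, the most of any bait there, all of them to unbaited fragments at 4.72 to 518 kb, and received 11 calls from other keratin baits. KRT13, the partner of KRT4 in mucosal epithelium, made 16 calls, 14 of them to keratin baits, and received 0. KRT25, an inner root sheath keratin, and KRT39 made 12 calls each, 10 of them to keratin baits, and received 0. KRT37, KRT38 and the KRT15/KRT19 bait each received 7 calls and sent calls to unbaited fragments alone.

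KRT33B was the other end of baits from across the locus. KRT25 met it over 614 kb with 7 reads and a score of 9.68, KRT10 over 550 kb with 8 reads and 5.19, and KRT39 over 402 kb as given above. From the other side KRT33A, its neighbour 19.6 kb away, met it with 61 reads and 9.88, and KRT13 over 129 kb with 19 reads and 11.41. The other 6 came from KRTAP baits and the KRT35/KRT36 bait, at 69.3 to 368 kb.

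In the human type II locus KRT73, an inner root sheath keratin, made the most calls, 13, all to other keratin baits and at 18.1 to 387 kb. They reached from KRT7 at one end, with 8 reads and a score of 8, to the KRT78/KRT79 bait at the other, with 15 reads and 13.63. KRT6B made 8 calls and KRT85, KRT75, KRT6A and KRT1 made 7 each. KRT4 and KRT78/KRT79 each received 8 calls, KRT84 received 7 and KRT75 received 6. The fragments of KRT4 and KRT78/KRT79 are those whose ends are printed above.

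Baits with at least 3 calls were divided by the kind of other end. In GM12878, 16 of 55 keratin baits had calls to unbaited fragments alone (29.1%) and 21 to baits alone (38.2%), where all 9044 such baits gave 30.5% and 20.1%. In mESCs 5 of 69 keratin baits (7.25%) and 10 of 69 (14.5%) did so, where all 9834 baits gave 19.8% and 14.8%. The 2 kinds of bait received calls unequally. None of the 16 keratin baits with unbaited other ends alone was without a received call, and 20 of the 21 with baited other ends alone (95.2%, 77.3 to 99.2) were. Over all baits of GM12878 these shares were 29.1% and 78.5%, so the same ordering held outside the keratins.

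**Figure D3:**
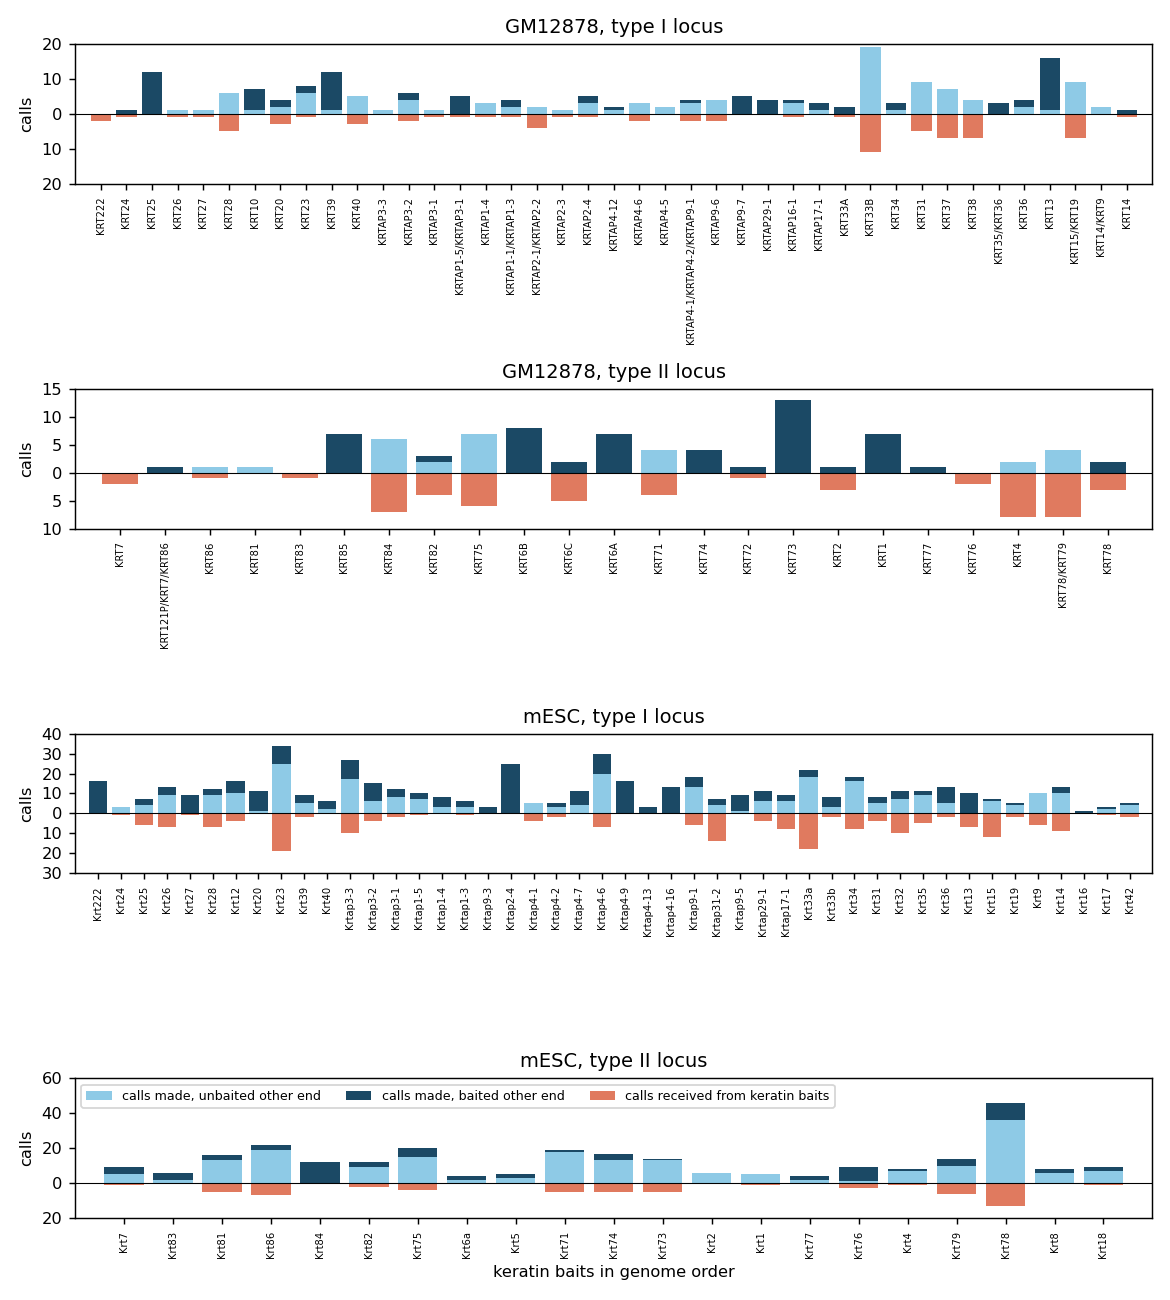
Calls made by each keratin bait (upward bars, number of calls, pale blue to unbaited fragments and dark blue to baits) and calls received from keratin baits (downward orange bars, number of calls), in genome order, for the 4 main loci. In GM12878 KRT25, KRT13 and KRT73 made calls to baits and received 0 calls, while KRT33B received 11 and KRT4 received 8. Of the 35 baits there with calls to keratin baits, 19 received 0 calls from keratin baits and 16, KRT6C and KRT82 among them, received some. In mESCs Krt23 and Krt78 stand out in both directions.

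Few keratin pairs of GM12878 were listed from both ends. This was 3 of 72 pairs in type I (4.17%), 1 of 54 in type II (1.85%) and 0 of 34 in the larger KRTAP locus of chromosome 21, against 18.5% of all called bait pairs. In mESCs it was 29 of 169 (17.2%) in type I and 12 of 44 (27.3%) in type II, against 26.2%. A pair such as Krt86 and Krt78, 477 kb apart with 23 reads, scored 12.74 seen from Krt86 and 9.23 seen from Krt78.

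In mESCs Krt23 and Krt33a were the other ends that most keratin baits of type I met. Krt23 made 34 calls and received 34, of which 19 came from keratin baits. Krt33a made 22 and received 35, of which 18 came from keratin baits. Krt23 was met from the far side of the cluster by Krt36 as given above, by Krt35 over 604 kb with 16 reads and a score of 10.95, and by Krt32 over 599 kb with 13 reads and 10.3. Krt33a was met from the near side by Krt28 over 638 kb with 14 reads and 9.84, and by Krt26 over 678 kb with 16 reads and 8.91. Krt33a and Krt23 met each other over 524 kb with 18 reads, with scores of 8.95 and 7.84 from the 2 ends. KRTAP baits were among the busiest, with 30 calls from Krtap4-6, 27 from Krtap3-3 and 25 from Krtap2-4, the last all to baits.

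Krt78, which encodes a type II keratin of stratified epithelium, made 46 calls, the most of any keratin bait in either cell type. Its calls spanned 8.28 to 631 kb with 10 to 122 reads, 36 of them ending on unbaited fragments, and it received 13 calls from keratin baits. Besides Krt84 and Krt75, these included Krt82 over 399 kb with 17 reads and a score of 13.59, Krt74 over 187 kb with 26 reads and 12.94, and Krt7 over 538 kb with 12 reads and 10.25. Krt86 made 22 calls and Krt75 made 20. In GM12878 the corresponding region, KRT4 and KRT78/KRT79, was likewise the most frequent other end of the type II locus, with 2 and 4 calls made.

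The keratins of the classic pairs were described one by one. KRT14, on 2 baits in GM12878, made 3 calls, with 653 kb for the 1 from the bait that carries it alone, and Krt14 made 13 calls in mESCs and received 9 from keratin baits. Krt5 made 5 calls and Krt16 made 1, to a keratin bait 55.8 kb away with a score of 5.17. Krt17 made 3 calls. KRT1 made 7 calls in GM12878, all to keratin baits, with its highest score of 11.63 to KRT78/KRT79, and Krt1 made 5 in mESCs, all to unbaited fragments. KRT10 made 7 calls in GM12878 over a median of 550 kb, 5 of them to keratin baits and 1 to RARA, the retinoic acid receptor alpha gene, 513 kb away with 9 reads and a score of 6.1.

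KRT6A made 7 calls in GM12878, all to keratin baits, and Krt6a made 4 in mESCs. KRT20, of intestinal epithelium, made 4 and Krt20 made 11. KRT19 shared a bait with KRT15 in GM12878 that made 9 calls, and Krt19 made 5 in mESCs. KRT7 made 1 call in GM12878, from a bait it shares with KRT86, and Krt7 made 9 in mESCs. Krt8 made 8 calls and Krt18 made 9. Krt8 was joined to Krt18, its partner in simple epithelia, over 28.8 kb with 49 reads and a score of 6.08, and its highest score, 13.33, was to an unbaited fragment 67.8 kb away with 29 reads. Krt18 reached Acvr1b, an activin receptor gene, over 851 kb with 12 reads and 6.68, and Grasp over 800 kb with 13 reads and 7.34.

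Contacts that left the listed baits were a smaller share of the calls in type I than in type II. The type II loci are shorter, 618 and 617 kb against 925 and 1023 kb, and the shares were not adjusted for span. Of the human type I calls 11 of 195 ended outside the listed baits, 5.64% (3.18 to 9.82), and of the mouse type I calls 31 of 524, 5.92% (4.2 to 8.27). In type II it was 17 of 82, 20.7% (13.4 to 30.7), in GM12878 and 77 of 265, 29.1% (23.9 to 34.8), in mESCs. The type II shares rest partly on where the listed baits end. The span of the annotated keratin genes takes in KRT80, KRT8 and KRT18. Set against it, the type II shares were 8 of 82 (9.76%) in GM12878 and 48 of 265 (18.1%) in mESCs. Type I gave 9 of 195 (4.62%) and 31 of 524 (5.92%), so the human contrast then rested on few calls. In mESCs 66 of the 77 calls went before Krt7, toward Krt80, and 11 beyond Krt18.

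The baits without a keratin symbol outside the loci received few calls. In GM12878 these were RARA from KRT10 and CCR7, a chemokine receptor gene of lymphocytes, from KRT25 over 189 kb with 7 reads and a score of 5.26, and none outside the type II locus. In mESCs Krt222 reached Ccr7 over 86.1 kb with 12 reads and a score of 12.42, Tns4 over 155 kb with 9.33 and Gjd3 over 264 kb with 7.93. Beside the type II locus the Mir1941 bait, which also holds the start of Krt80 and so is a keratin promoter without a keratin symbol, received 2 calls, from Krt74 and Krt76. Grasp, Acvr1b and 6030408B16Rik received 1 each.

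KRTAP genes outside the type I locus behaved as smaller loci. On human chromosome 21 the larger locus, from KRTAP24-1 to KRTAP11-1, held 25 baits over 599 kb and made 41 calls, of which 34 ended on another KRTAP bait (82.9%) over a median of 78.2 kb. KRTAP20-3 made 12 of these calls and KRTAP20-1 received 7, and the call between them, 23.6 kb long with 55 reads, scored 22.65. Of the 300 bait pairs of this larger locus, 34 were joined, where 64.2 would follow from the all-bait shares of the same distances. Under 200 kb it was 25 of 178, 14% (9.7 to 19.9), below the 27.6% of all baits. CLDN17, a tight junction gene outside the locus, received 2 calls, with a highest score of 8. The second locus of the same chromosome, KRTAP10 and KRTAP12 genes over 157 kb, made 24 calls, and 15 of these left it. TSPEAR-AS1 received 4 of them, with 23 reads and a score of 20.66 for the call from KRTAP10-7.

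The human KRTAP5 genes lie in 2 groups on chromosome 11. The bait of KRTAP5-7 and KRTAP5-8 was joined to that of DHCR7 and NADSYN1, a cholesterol synthesis and an NAD synthesis gene, over 77.9 kb with 22 reads and a score of 23.93, the highest of any keratin call. In the other group KRTAP5-6 reached the bait of H19 over 302 kb with 21 reads and a score of 7.95, and KRTAP5-4 the bait of INS over 538 kb with 10 reads and 5.03. In mESCs Krtap5-4 reached Igf2 over 360 kb with 12 reads and a score of 7.61 and Mir483 over 349 kb with 11 reads and 5.63. H19, IGF2 and INS belong to one imprinted neighbourhood. The lists do not separate the parental alleles.

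In GM12878, 8 baits had a keratin pseudogene as their only keratin symbol, KRT8P11 or 1 of 7 copies of KRT18, scattered over 6 chromosomes. The bait of KRT8P11 named no other gene, and the other 7 also named genes that are not keratins. They made 29 calls, 0 of them to a keratin bait. The highest score, 12.49, was to TIPARP over 491 kb with 14 reads, from the bait of KRT18P34, which also carries CCNL1, so the call cannot be assigned to the pseudogene. In mESCs Krt72-ps, inside the type II locus, made 12 calls, of which 3 ended on keratin baits, the strongest to Krt78 over 164 kb with 24 reads and 11.04.

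For the comparison of the cell types, 57 symbols had a listed bait in both, 21 type I, 18 type II and 18 KRTAP. Of these 51 had a call in both, 4 in mESCs alone, 0 in GM12878 alone and 2 in neither, while 90.7% of all 8690 matched symbols had a call in both. mESCs had more calls for 45 of the 57 (78.9%), against 46.1% of all matched symbols, and GM12878 for 10. The medians were 4 calls in GM12878 and 10 in mESCs for the keratins, and 4 and 4 for all. The 10 with more calls in GM12878 included KRT33B with 19 against 8, KRT13 with 16 against 10, KRT25 with 12 against 7 and KRT39 with 12 against 9. Symbols on the same bait share its calls, as KRT15 and KRT19 do. At a score of at least 10, 21 symbols had more calls in mESCs, 6 in GM12878, and 30 were equal, 29 of them with 0 in both.

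**Figure D4:**
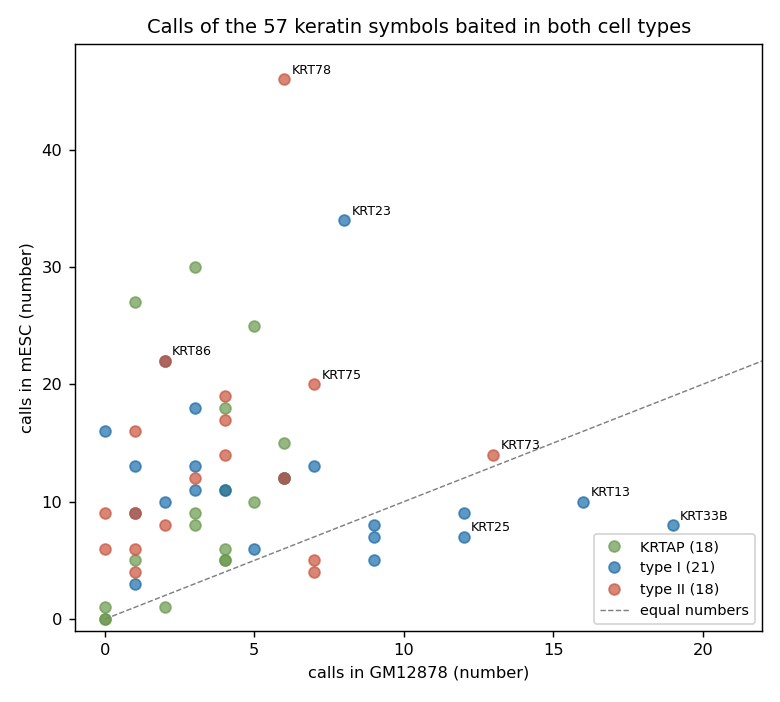
Number of calls of each of the 57 keratin symbols baited in both cell types, GM12878 on the horizontal and mESCs on the vertical axis, coloured by class. The dashed line marks equal numbers. KRT78 (46 calls), KRT23 (34) and KRT86 (22) of mESCs lie far above it, and KRT33B with 19 calls in GM12878 lies below it.

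Pairs of keratin genes could be matched as well. Of 713 gene pairs of 1 locus with baits in both cell types, 97 were joined in GM12878 and 143 in mESCs, and 21 in both, which is 21.6% of the former and 14.7% of the latter. Over all 713 pairs, 13.6% were joined in GM12878 and 20.1% in mESCs. The 21.6% thus lay near the 20.1% of mESCs, and the 14.7% near the 13.6% of GM12878. Type I had 60 and 101 joined of 557 pairs with 12 shared, and type II 37 and 42 of 153 with 9 shared. Of the pairs joined in GM12878, 20% in type I and 24.3% in type II were also joined in mESCs. Over all matched pairs of each type, 18.1% and 27.5% were joined in mESCs. The shared pairs included KRT39 and KRT33B, with scores of 22.34 and 6.4, KRT78 and KRT84, with 5.89 and 21.01, and KRT73 and KRT84, with 10.38 and 7.59. KRT25 and KRT33B were joined over 614 kb in GM12878 and 706 kb in mESCs. KRT13 and KRT15, neighbours at 21.6 and 17.3 kb, had 41 and 52 reads with scores of 16.37 and 5.02.

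The Hi-C library of mESCs, which has no capture step and no replicate, gave a second readout of the mouse loci. Of the 811 keratin calls under 1 Mb, 70 lay within a 25-kb bin pair with an FDR under 0.05, 8.63% (6.89 to 10.8), against 11.6% of all calls under 1 Mb. The type II locus had 47 of 265, 17.7% (13.6 to 22.8), and the type I locus 22 of 523, 4.21% (2.79 to 6.29). Krt78 stood at one end of most of these type II calls, so the type II share rests largely on that bait, which its interval ignores. Under 200 kb 10 of 192 keratin calls lay within such a bin pair, 5.21% (2.85 to 9.32), below the 13.1% of all calls. From 200 kb to 1 Mb the keratin share was 9.69% (7.6 to 12.3), an interval that includes the 8.63% of all calls. Within the type I locus 11 bin pairs were counted, with a median distance of 600 kb, and 5 of them held a keratin call. Within the type II locus there were 7, with a median of 452 kb, and all 7 held one. The median read pairs of these bin pairs were 18 and 21, where 4.45 and 4.82 were expected. Bin pairs were kept for having more reads than expected, so this difference adds no support. Among the keratin calls inside bin pairs were Krt86 and Krt78 over 477 kb, and Krt7 and Krt78 over 538 kb.

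Genes of other intermediate filaments, desmosomes and the cornified envelope were looked up as a list of 30. Baits were listed for 27 in GM12878 and 25 in mESCs, 25 and 25 had a call, and 0 in either cell type were joined to a keratin promoter. Most of these genes lie on other chromosomes than the keratin loci. No keratin call joined 2 chromosomes, and the longest spanned 863 kb in GM12878 and 1118 kb in mESCs. For genes so placed the 0 was set by position, and nothing is concluded from it. The calls of the listed genes had medians of 5 and 6 per gene, with 11 from VIM, the vimentin gene, and 89 from DST, the dystonin gene, in GM12878. The median of their median distances was 185 and 140 kb, near the 174 and 139 kb of all calls.

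Near-identical copies can share reads, so keratin baits were aligned to each other. In GM12878, 19 pairs of keratin baits matched each other over 100 bp or more with 95% or more of the bases identical, and 1 of them was joined by a call, KRT6B and KRT6C, which share 3891 bp at 95.8% identity and lie 21.7 kb apart. In mESCs 13 pairs did, and 3 were joined, Krtap3-3 with Krtap3-2, Krtap4-1 with Krtap4-2 and Krt34 with Krt31. Most similar pairs lie under 50 kb apart. At that distance 9.41% of type I and 25.8% of type II pairs were joined in GM12878, and 30.6% of all bait pairs. In mESCs these shares were 16%, 15.4% and 34.8%. Whether similarity changes the calling was not tested. The KRT6B and KRT6C fragments differ at their ends, as the plus-strand start of each shows (chr12:52838721-52838780 and chr12:52860109-52860168, hg19, HindIII site in capitals).
KRT6B: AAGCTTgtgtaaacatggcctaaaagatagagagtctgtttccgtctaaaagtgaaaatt
KRT6C: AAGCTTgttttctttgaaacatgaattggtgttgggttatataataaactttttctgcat
No other keratin bait shared such an alignment with KRT6A, KRT6B or KRT6C.

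Fragments met by at least 3 keratin baits were searched on both strands for a core of the CTCF motif, of which a matching stretch is shown in capitals after the counts, since CTCF marks many loop anchors. In GM12878, 8 of 33 held a match (24.2%), where fragments within 10% of their length on the same chromosome held one in 18% on average. In mESCs 36 of 114 did (31.6%), where 26.1% of fragments of like length did, so the shares lay near the background. An unbaited human fragment of 2229 bp, 6.25 kb from KRT19 and met by 5 keratin baits, held 3 matches, where 6.29% of fragments of its length held any. One of these matches, in capitals within its 50 neighbouring bases on either side, lies in chr17:39692793-39692904 (hg19, plus strand).
Unbaited fragment near KRT19: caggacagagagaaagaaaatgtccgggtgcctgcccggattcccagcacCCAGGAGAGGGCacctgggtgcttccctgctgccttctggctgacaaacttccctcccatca
A match is a run of letters and shows no binding. Of the fragments whose ends open the description, KRT78/KRT79 held 2 matches, where 36.8% of fragments of its length held any, and Krt23 held 1, where 35.8% did, while KRT33B, KRT4 and Krt78 held 0. KRT75, a shorter fragment met by 6 keratin baits, held 2, where 5% did. The mouse fragment near Krt10 held 0.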

How the data were processed

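Promoter CHi-C was carried out on 3 biological replicates of GM12878 and 2 of mESCs, and Hi-C on 1 mESC library. Per the labels and methods, read pairs were mapped to hg19 or mm9 and filtered with HiCUP, with Bowtie 1.1.0 and HOMER 4.7 named in the submitters' processing notes. The CHiCAGO score deposited by the authors is a soft-thresholded negative log of a weighted p-value, computed on all replicates together. The read count listed by the authors with each call is weighted over replicates and rounded, so it was treated as a score and not as a raw count. For Hi-C, the authors deposited the count of read pairs per pair of 25-kb bins, the coverage signal expected by HOMER and FDR-adjusted p-values. The Hi-C list of 1-Mb bins was not used.

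Keratin baits were found by symbol, and mouse names were split at the separators the lists use. Distances were taken between fragment midpoints. Pairs of listed baits under 1 Mb apart were counted in 5 classes of distance. Shares have Wilson 95% intervals, and a count of 0 allows 3 counts of the total. No test was made, since no value per replicate is given. Fragments were aligned with BLAST 2.17.0. Scripts ran in Python 3.11.15 with pandas 2.3.3 and SciPy 1.17.1. Counting of pairs was tested on simulated calls. The members, gene lists and rules were chosen with earlier results of these data known. The genes named are 12 classic keratins, the 3 baits with most calls and the 2 highest calls of each locus, the genes at their other ends, and the outside promoters with most calls. Others, such as further other ends of the busiest baits, were chosen after their values were seen. Alternatives were a score or read count of at least 10, the browser list, baits with keratin symbols alone, pseudogene baits or similar pairs left out, neighbours at most 200 kb apart and a Hi-C FDR under 0.01.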

Additional observations from a re-analysis of the deposited data

How the results depend on the processing

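Of 155 values recomputed under alternatives for 23 results, 119 stayed within 1.5 times (counts) or within the 95% interval of the reported value and 36 moved. A score of at least 10 moved 21 of 23. It left 41 calls from 21 keratin baits in GM12878 and 46 calls from 28 in mESCs, with a median distance of 116 kb in GM12878 and baited other ends in 95.1% and 54.3%. Pairs joined under 200 kb were then 1.65% (type I) and 3.17% (type II) in GM12878 and 1.14% and 0.962% in mESCs, and from 200 kb to 1 Mb 0.967% and 4.72%, and 1.32% and 6.6%. All baits gave 8.4% in GM12878 and 7.76% in mESCs under 200 kb, and 1.34% and 0.854% from 200 kb to 1 Mb. The mouse type I interval of the longer range, 0.698 to 2.5, includes the 0.854%, and that of type II, 3.24 to 13, does not. At that threshold the type I share of GM12878 at 200 kb to 1 Mb lay below the 1.34% of all baits, where as deposited it was 9.67% against 6.65%, with 50 pairs joined and 50.4 expected from the all-bait shares of the same distances. Calls leaving the locus were then 0% (type I) and 9.09% (type II) in GM12878 and 14.3% for type I in mESCs. The Hi-C share was 15.2%, 3 matched genes had a call in both cell types, and 36.8% had more calls in mESCs. A read count of at least 10 moved 12. It left 255 calls in GM12878 and 441 in mESCs, with medians of 222 and 313 kb and 48.8% baited other ends in mESCs. Pairs joined from 200 kb to 1 Mb were then 4.45% (type I) and 11.8% (type II) in GM12878, against 3.55% of all baits, and 8.24% and 20.8% in mESCs, against 1.97%. These all-bait shares are not matched for distance. By class, human type I pairs had 5.01% at 200 to 500 kb, below the 7.77% of all baits. At 500 kb to 1 Mb they had 3.16%, against 0.631%. Calls leaving the human type I locus were 2.8%, the Hi-C share 12.7% and genes with more calls in mESCs 61.4%. The browser list moved baited other ends in mESCs to 36.5%. The span of annotated genes, chosen after seeing the data, moved calls leaving the type II locus to 9.76% and 18.1%. The other alternatives moved none of these results. The cause of the moves other than fewer calls was not tested. No paired analysis was possible because the lists hold one pooled value per cell type, and for the same reason no replicate could be left out. Between 3 and 127 reads support a keratin call of GM12878 and 4 to 331 one of mESCs, and calls at neighbouring fragments or of one bait are not independent.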
